A study of Mus musculus with 5 samples.

Results

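The RNAs of 10 imprinted genes that regulate growth were read in mouse haematopoietic stem cells (HSCs), the bone marrow cells that renew the blood. The genes are Ndn, Plagl1, Mest, Peg3 and Impact, which are known to be expressed mainly from the paternal allele, and H19, Meg3, Grb10, Gnas and Igf2r, which are expressed from the maternal allele in many or some tissues. They were taken by symbol from a table of raw read counts with 35976 gene rows, and all 10 symbols are rows of it. At least 1 read was counted for 7 of the 10, and 6 passed the filter on low counts and were tested.

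The study compared Ythdf3-/- with WT mice, both C57BL/6. Each library was made by Smart-seq2, a method for full-length cDNA from few cells, from 30 sorted Lineage- Sca-1+ c-kit+ CD34- CD150+ cells, and the 5 libraries come from different mice. The labels give 3 Ythdf3-/- and 2 WT libraries, whereas the series text counts 2 knockout and 3 wild-type samples, and neither the Ythdf3 allele nor the animals' age and sex are described. YTHDF3 is a reader of N6-methyladenosine, a methyl mark on mRNA, and the question is which HSC transcripts differ without it.

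An imprinted gene is transcribed from the allele of 1 parent, set by DNA methylation laid down in the egg or sperm and kept through later cell divisions. Imprinted genes lie in clusters, and many of them restrain or promote fetal growth through the insulin-like growth factor (IGF) pathway. In mice, several stay expressed in adult stem cells after birth, and Ndn, the H19-Igf2 pair, the Dlk1-Meg3 cluster, Grb10 and Cdkn1c have been linked to the dormancy or self-renewal of HSCs. Counts per gene carry no allele information, so nothing in these data bears on which parental copy was read.

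Library totals ran from 6357862 to 16650134 counts, so that 1 count was worth between 0.0601 and 0.157 CPM (counts scaled by the library total). Ythdf3 itself went against the labels, at 2, 339 and 366 counts under the Ythdf3-/- label (libraries 1, 2 and 3) and 20 and 29 under the WT label (libraries 1 and 2). Groups are therefore named by their labels throughout, and every direction refers to the labels alone. Over all genes the edgeR quasi-likelihood test called 0 of 11146 (0%) at an adjusted p under 0.05, as did limma voom, while DESeq2 called 259 (2.32%). At an unadjusted p under 0.05 edgeR had 541 genes (4.85%), 2.11% of those tested being higher and 2.75% lower under the Ythdf3-/- label. Libraries labelled Ythdf3-/- 1 and WT 2 carried red cell transcripts, with 36558 and 1301 CPM summed over 10 erythroid genes against 34.2 to 130.4 CPM in the others. The sums differed in make-up. The globin gene Hba-a1 had 18524 CPM in Ythdf3-/- 1 and 272 in WT 2. Car1 had 3.77 and 456 CPM in these 2 libraries, Gata1 0.157 and 118, and Epor 49.1 and 52.7. The 7 B cell genes summed to 1258, 218 and 95.9 CPM under the Ythdf3-/- label and 538 and 56.5 CPM under the WT label.

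Several members are read from more than 1 start, and a count per symbol adds these transcripts together. The windows printed here show the starts of Grb10 and Gnas that lie farthest apart, the single start of Ndn, and the starts of Plagl1 and Peg3, for which no read was counted. Each runs from 250 bases before to 50 bases after a transcription start, 5′ to 3′ on the gene's strand, from RefSeq on GRCm38.p6, which is mm10. Capitals mark CG dinucleotides, the sites at which DNA can be methylated. Whether a window lies in a region that carries an imprint was not examined. The RefSeq table held 15 windows for 8 of the members. The window of Impact is not used here, and H19 had none.

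Ndn, chr7:62348027-62348326, plus strand: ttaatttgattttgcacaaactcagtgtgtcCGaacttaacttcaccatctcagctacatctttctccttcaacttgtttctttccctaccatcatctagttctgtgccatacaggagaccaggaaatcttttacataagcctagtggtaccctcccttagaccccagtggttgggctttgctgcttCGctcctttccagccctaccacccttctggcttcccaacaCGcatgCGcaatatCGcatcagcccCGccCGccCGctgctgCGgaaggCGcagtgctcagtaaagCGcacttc
Grb10 upstream start, chr11:12037371-12037670, minus strand: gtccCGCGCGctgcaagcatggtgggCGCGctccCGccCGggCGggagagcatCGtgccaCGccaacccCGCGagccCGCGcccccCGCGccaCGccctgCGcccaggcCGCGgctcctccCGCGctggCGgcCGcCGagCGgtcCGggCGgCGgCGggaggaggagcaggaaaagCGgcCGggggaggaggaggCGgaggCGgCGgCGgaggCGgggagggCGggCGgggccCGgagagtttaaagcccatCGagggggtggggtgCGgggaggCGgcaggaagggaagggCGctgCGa
Grb10 downstream start, chr11:12027922-12028221, minus strand: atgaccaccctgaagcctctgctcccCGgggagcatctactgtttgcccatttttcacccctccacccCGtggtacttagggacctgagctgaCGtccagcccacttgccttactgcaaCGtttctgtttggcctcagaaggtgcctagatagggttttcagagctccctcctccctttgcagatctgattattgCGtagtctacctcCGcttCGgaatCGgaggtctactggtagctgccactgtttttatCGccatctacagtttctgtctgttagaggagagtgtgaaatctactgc
Gnas first start, chr2:174284070-174284369, plus strand: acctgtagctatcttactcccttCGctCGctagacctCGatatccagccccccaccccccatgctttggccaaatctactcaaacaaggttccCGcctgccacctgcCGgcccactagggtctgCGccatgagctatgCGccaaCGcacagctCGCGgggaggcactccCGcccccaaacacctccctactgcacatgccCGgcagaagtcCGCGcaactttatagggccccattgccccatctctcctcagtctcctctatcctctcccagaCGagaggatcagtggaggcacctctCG
Gnas last start, chr2:174329756-174330055, plus strand: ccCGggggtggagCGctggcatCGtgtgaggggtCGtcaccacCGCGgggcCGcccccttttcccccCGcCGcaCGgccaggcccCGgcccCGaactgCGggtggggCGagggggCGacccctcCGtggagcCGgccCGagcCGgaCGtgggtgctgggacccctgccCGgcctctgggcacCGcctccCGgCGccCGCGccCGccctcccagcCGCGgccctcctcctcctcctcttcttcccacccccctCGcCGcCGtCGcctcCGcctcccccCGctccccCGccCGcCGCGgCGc
Plagl1, chr10:13090582-13090881, plus strand: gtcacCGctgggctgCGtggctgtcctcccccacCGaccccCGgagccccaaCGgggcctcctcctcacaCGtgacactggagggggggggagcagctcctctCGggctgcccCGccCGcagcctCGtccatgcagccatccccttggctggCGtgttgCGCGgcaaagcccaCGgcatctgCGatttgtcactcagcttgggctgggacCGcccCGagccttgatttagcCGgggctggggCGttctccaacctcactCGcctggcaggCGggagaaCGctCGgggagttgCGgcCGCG
Peg3, chr7:6730370-6730669, minus strand: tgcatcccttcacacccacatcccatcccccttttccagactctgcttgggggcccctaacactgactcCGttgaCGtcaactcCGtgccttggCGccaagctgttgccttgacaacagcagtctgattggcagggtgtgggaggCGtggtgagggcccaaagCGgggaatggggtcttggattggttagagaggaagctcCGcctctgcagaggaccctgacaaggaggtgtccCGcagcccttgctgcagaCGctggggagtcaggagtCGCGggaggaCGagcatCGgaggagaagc

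CG dinucleotides numbered 45 in the upstream and 9 in the downstream window of Grb10, and 16 in the first and 40 in the last window of Gnas. Ndn had 11. Plagl1 and Peg3, listed at 0 reads, had 26 and 13, within the range of the members that were read. The median over 32851 promoter windows was 7, and 1.93% of windows held as many as the upstream window of Grb10. The start of a read cannot be told from these counts, so the values below are sums over all starts of a gene. Smart-seq2 does not mark strand either, and reads of a gene and of an antisense partner cannot be told apart where their exons overlap.

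Gnas and Ndn had the highest mean levels per length among the 10 genes. The CPM were divided by the kilobases of exon that GENCODE M21 gives for each gene. Gnas averaged 36.0 ± 12.4 CPM per kilobase (SD, n = 5 libraries) and Ndn 31.7 ± 11.4. On these lengths they did not differ beyond that spread, although Gnas lay above Ndn in 4 of 5 libraries. Impact followed at 15.3 ± 6.55 CPM per kilobase and lay below Ndn in 5 of 5 libraries. Grb10 and Igf2r were close, at 8.31 ± 3.87 and 8.26 ± 4.59 CPM per kilobase, and Grb10 lay above Igf2r in 1 of 5 libraries only. Mest at 0.559 ± 1.19 and Meg3 at 0.354 ± 0.399 CPM per kilobase were the lowest of those read. With the length of the longest transcript in place of all exon bases the order of the first 5 genes was the same, with Gnas at 102 and Ndn still at 31.7 CPM per kilobase. For Ndn both lengths are 3694 bases, more than the RefSeq span of the gene given below. Over that shorter span the level of Ndn per kilobase would be higher, so its order with Gnas depends on the annotation.

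**Figure D1:**
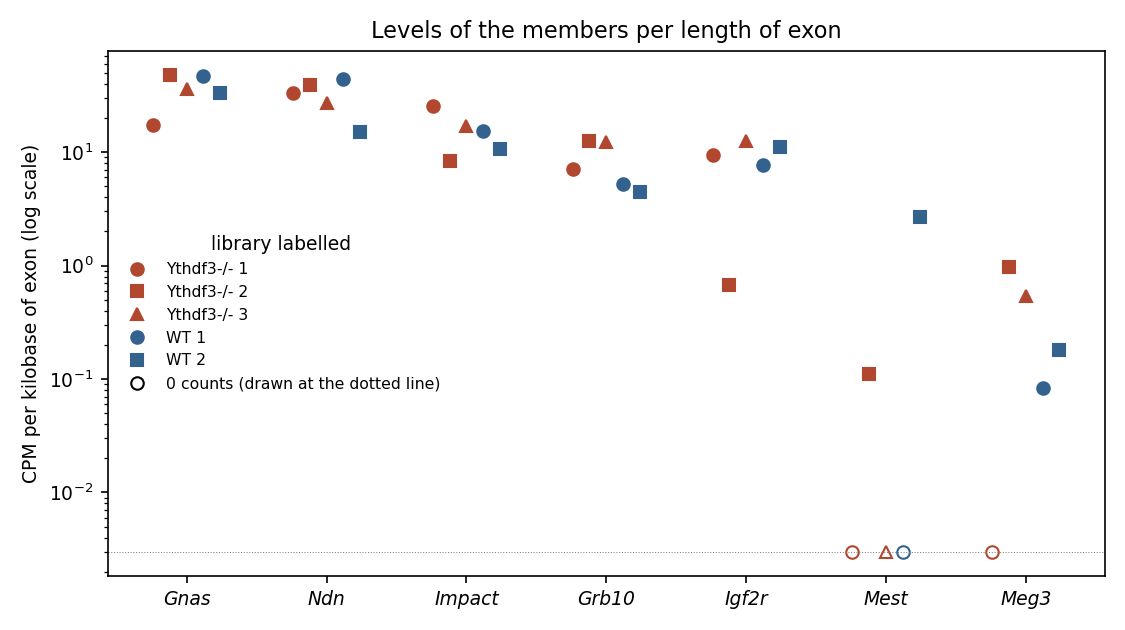
Level of each member with counts, in CPM per kilobase of exon on a log scale, in the 3 libraries labelled Ythdf3-/- (red) and the 2 labelled WT (blue), with open symbols on the dotted line for 0 counts. Gnas and Ndn stand highest, and Igf2r has a single low library, that labelled Ythdf3-/- 2.

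Among the paternally expressed members, Ndn encodes necdin, a MAGE family protein that restrains cell division and in mice helps to keep HSCs dormant. Ndn (chromosome 7, 62348277 to 62349928, GRCm38) had 122, 145 and 100.2 CPM in the libraries labelled Ythdf3-/- 1, 2 and 3, and 163 and 55.2 CPM in those labelled WT 1 and 2. Both the highest and the lowest value were under the WT label, with all 3 libraries labelled Ythdf3-/- between them. The fitted log2 difference was 0.094 (SE 0.66, edgeR adjusted p = 0.9998). It was 1.02 when WT 1 was left out and -0.45 when WT 2 was, each with 1 library left under the WT label. The library labelled WT 2, where Ndn was lowest, also had the lowest summed level of 17 genes of stem cell identity, 1901 CPM against 2327 to 3475 CPM elsewhere. The part of cell mixture in this value was not tested. In bulk libraries fewer cells that express a gene and less RNA per cell cannot be told apart.

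Impact encodes a protein that keeps the stress kinase GCN2 from being activated. It lies on chromosome 18 (12954690 to 12992950) and had 129, 43.0 and 86.4 CPM under the Ythdf3-/- label and 79.1 and 54.1 CPM under the WT label. The libraries labelled Ythdf3-/- held both extremes, with WT values inside their range. Its log2 fold change of 0.29 (SE 0.81, edgeR adjusted p = 0.9998) became -0.10 without the library labelled Ythdf3-/- 1.

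Mest encodes a membrane protein of the hydrolase family that is abundant in growing mesodermal tissue. Mest (chromosome 6, 30733506 to 30748466) was read mainly in a single library, that labelled WT 2. It had 0, 4 and 0 counts under the Ythdf3-/- label and 0 and 95 counts under the WT label, and did not pass the filter on low counts. Of 15 stromal and endothelial markers 9 were at 0 in every library, among them Col3a1, Pdgfra, Cxcl12, Lepr, Cdh5 and Kdr. The list summed to 123, 52.0 and 147 CPM under the Ythdf3-/- label and 110.5 and 61.8 CPM under the WT label. Emcn and Pecam1 made up most of each sum, so that it says little of the other markers. Emcn was read in every library, at 123, 46.6 and 44.5 CPM against 63.6 and 51.5 CPM. Pecam1 had 2, 41 and 682 counts against 769 and 2. Col1a1 was read in WT 2 alone, at 90 counts. Col1a2 had 0, 8 and 40 counts under the Ythdf3-/- label and 0 and 0 under the WT label. Their part in the level of Mest was not tested. Exons of Mest share 23.1% of their bases with Copg2, which lies on the opposite strand and in the same library had 125 counts.

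Plagl1, a zinc finger transcription factor that can arrest the cell cycle, and Peg3, a zinc finger protein tied to growth and maternal behaviour, were at 0 counts in all 5 libraries. With 48069634 counts in all, a count of 0 allows a level of up to 0.0624 CPM, taking 3 counts as the limit. This covers counting error only: the annotation and the handling of shared reads are not known, so reads lost in counting would not be seen, here or for the other genes at 0. Other genes share 0.486% of the exon bases of Plagl1 and none of those of Peg3. Usp29, which starts beside Peg3 on the opposite strand, was at 0 counts too.

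Among the maternally expressed members, Grb10 encodes an adaptor that binds the insulin and IGF1 receptors and restrains their signalling. Grb10 (chromosome 11, 11930499 to 12037428) had 64.0, 114 and 112 CPM in the libraries labelled Ythdf3-/- and 47.8 and 40.0 CPM in those labelled WT. Every library labelled Ythdf3-/- lay above both labelled WT. Among all genes tested 20.7% had libraries that did not overlap, and 9.74% did so with the Ythdf3-/- label higher, so that 1 of the 6 members tested is near the background. The means were 96.6 ± 28.2 (SD, n = 3) and 43.9 ± 5.50 CPM (SD, n = 2). This log2 fold change of 1.05 (SE 0.80) did not pass (edgeR adjusted p = 0.9998). An exact permutation test, two-sided, gave p = 0.2, the smallest that 10 arrangements of 3 against 2 libraries allow. Sums of marker genes of 2 other cell types lay apart in the same way, while those of the erythroid, B cell, megakaryocyte and stromal lists overlapped. The 8 monocyte and macrophage genes summed to 1095, 736 and 841 CPM under the Ythdf3-/- label and 460 and 464 CPM under the WT label, with 4, 5 and 6 against 6 and 3 of the genes read. Most of each sum was Lyz2, at 1004, 672 and 614 CPM against 434 and 416 CPM. Other genes of the list differed from it: C1qb was highest in WT 2, at 47.4 CPM, and Csf1r was read in WT 1 alone, at 12 counts. The 4 T and NK cell genes, of which Cd3d was at 0 in every library and Cd3e had 1 count in all, summed to 93.1, 56.8 and 14.1 CPM against 0.841 and 10.3 CPM. Nearly all of each sum was Nkg7 and Lck. Nkg7 overlapped between the labels, at 49.2, 45.4 and 1.14 CPM against 0.841 and 2.12 CPM. Lck did not, at 43.9, 11.5 and 12.8 CPM against 0 and 8.14 CPM. The part of these cell types in the level of Grb10 was not tested. Over 13 alternatives the fold change of Grb10 stayed positive, between 0.89 and 1.30 on the log2 scale, and its adjusted p ran from 0.765 to 1 in the tools used (edgeR, limma and DESeq2).

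Gnas encodes the stimulatory G protein alpha subunit, which couples hormone receptors to cyclic AMP. With 1226, 4884 and 2793 counts under the Ythdf3-/- label and 8630 and 3299 under the WT label it was the most counted member in every library. In CPM these are 193, 538 and 398 under the Ythdf3-/- label, and 518 and 368 under the WT label. The lowest value was that of the library labelled Ythdf3-/- 1 and the other 4 lay together. Gnas (chromosome 2, 174284320 to 174346744) had a log2 fold change of -0.32 with an SE of 0.47 (edgeR adjusted p = 0.9998), which became 0.023 without the library labelled Ythdf3-/- 1. In that library the 10 erythroid genes summed to 36558 CPM and the 7 B cell genes to 1258 CPM, each the highest sum of any library. Their part in the value of Gnas was not tested. Exons of other genes, Nespas among them, share 22.0% of the exon bases of Gnas.

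Igf2r encodes the receptor that binds IGF2 and mannose 6-phosphate, removing the growth factor from the cell surface and sorting enzymes to lysosomes. Igf2r (chromosome 17, 12682406 to 12769706) had 88.1, 6.28 and 116 CPM under the Ythdf3-/- label and 72.0 and 102 CPM under the WT label. The library labelled Ythdf3-/- 2 stood far below the other 4, with 57 counts. Its log2 fold change of -0.42 (SE 1.11, edgeR adjusted p = 0.9998) became 0.12 without that library. Airn, the noncoding RNA that runs antisense through Igf2r from the paternal allele and in mice silences it in cis, had 0, 280 and 210 counts under the Ythdf3-/- label and 70 and 0 under the WT label. Its part in the level of Igf2r was not tested. Airn had a log2 fold change of 3.20 with an SE of 3.37 (edgeR adjusted p = 0.9998). This was 2.24 when WT 2 was left out and 10.28 when WT 1 was, where the WT label is at 0 counts and the fitted value is no bound. In the annotation no exon base is shared between the genes.

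Meg3 is a long noncoding RNA of the Dlk1-Meg3 cluster, which in mice is active in long-term HSCs. Meg3 (chromosome 12, 109540996 to 109571729) had 0, 158 and 69 counts under the Ythdf3-/- label and 25 and 29 counts under the WT label. It was highest in 2 libraries labelled Ythdf3-/- and at 0 in the other. In CPM the means were 9.08 ± 8.73 (SD, n = 3) and 2.37 ± 1.22 (SD, n = 2), with a log2 fold change of 1.84 and an SE of 2.85 (edgeR adjusted p = 0.9998). It ran from 0.93, when Ythdf3-/- 2 was left out, to 2.56, when WT 2 was, and was 0.082 in limma voom. Dlk1, the paternally expressed partner of the cluster and a ligand-like membrane protein, had 0 counts in each library labelled Ythdf3-/- and 80 and 54 counts in those labelled WT. In these libraries its mean under the Ythdf3-/- label was at least 40.5-fold lower, taking 3 counts over the group as the limit for 0. That limit covers counting error only and not the spread between libraries. Dlk1 did not pass (edgeR adjusted p = 0.964, unadjusted p = 0.0277). Of the exon bases of Meg3 8.29% are shared with other genes. Rian, the next maternal RNA of the cluster, had 0 counts throughout.

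H19, the noncoding RNA that in mice restrains IGF signalling in HSCs, was at 0 counts in all 5 libraries. The floor is the same 0.0624 CPM as for Plagl1 and Peg3. Other genes, among them the microRNA gene Mir675 that H19 hosts, share 9.15% of its exon bases. Igf2, its neighbour, had 1, 4 and 62 counts under the Ythdf3-/- label and 0 and 0 under the WT label. The groups do not overlap, but 62 of these counts are from a single library, and 64.5% of the exon bases of Igf2 are shared with other genes. Igf2 did not pass the filter on low counts.

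**Figure D2:**
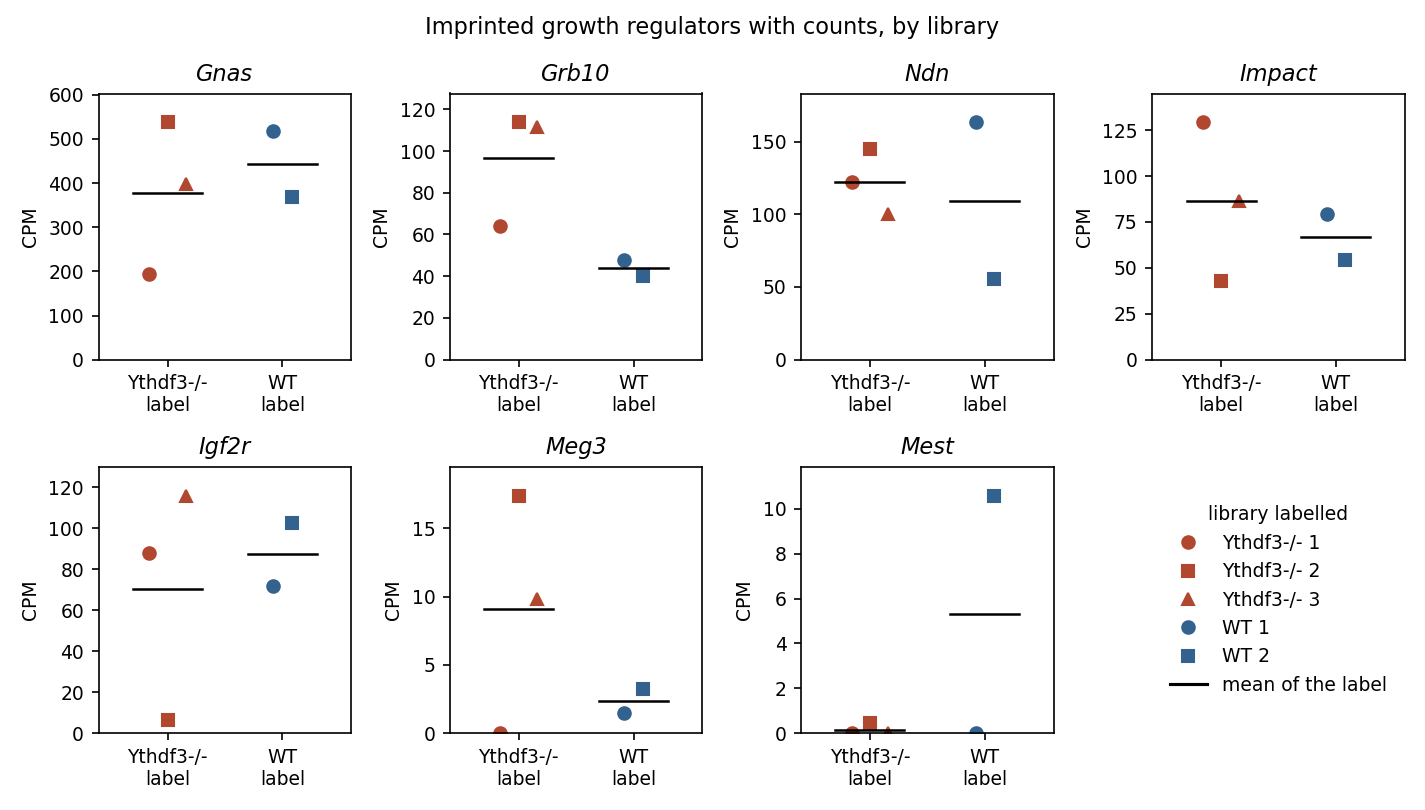
Level in CPM of the 7 members with counts, in the 3 libraries labelled Ythdf3-/- (red, left) and the 2 labelled WT (blue, right), with lines at the means and an axis from 0 in each panel. The groups are apart in Grb10, where the Ythdf3-/- label runs from 64.0 to 114 and the WT label from 40.0 to 47.8 CPM, and overlap in the other 6.

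As a set, the members showed no common direction. Of the 6 tested, 4 were fitted higher and 2 lower under the Ythdf3-/- label, with 0 past the threshold in edgeR, limma voom and DESeq2 and 0 at an unadjusted edgeR p under 0.05. The median log2 fold change was 0.19, against -0.063 over all genes tested, of which 5333 were fitted higher and 5813 lower. Summed over the 10 genes, levels were 597, 864 and 822 CPM under the Ythdf3-/- label and 882 and 633 CPM under the WT label. Gnas made up between 32.3% and 62.3% of these counts. Across libraries the levels of Gnas, Ndn, Impact and Grb10 varied less than the median gene of 50 to 500 CPM, but within the quartiles of such genes. Their SD of log2(CPM + 1) was 0.59, 0.61, 0.61 and 0.68. The median over 4411 genes of 50 to 500 CPM was 0.82, with quartiles of 0.55 and 1.31. Igf2r varied more, with an SD of 1.67.

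**Figure D3:**
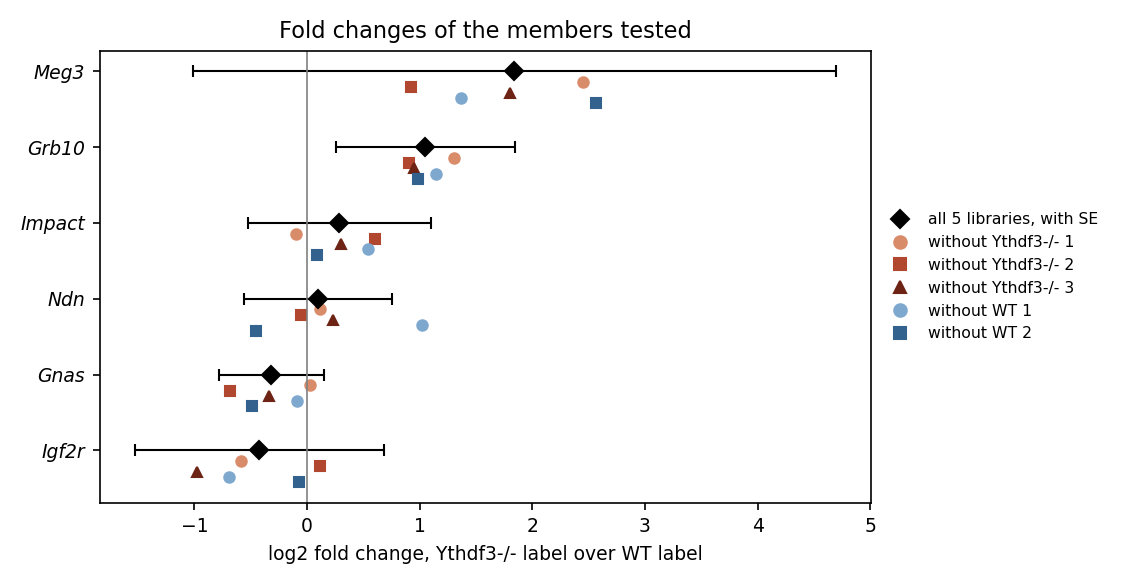
Log2 fold change, Ythdf3-/- label over WT label, of the 6 members tested, with its SE (black) and the value with each library left out in turn (coloured symbols). Grb10 and Meg3 stay above 0 in all 5 such fits, and Impact, Ndn, Gnas and Igf2r cross 0 in at least 1 of them.

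None of the other imprinted genes passed in edgeR. Of the 21 tested, 3 were at an unadjusted edgeR p under 0.05, against 4.85% of all genes tested. The lists name 50 genes, 49 of them rows of the table, and some are imprinted only in brain or placenta. At 0 counts in every library were 22 of the 49 (44.9%), against 3 of the 10 members and 57.6% of all rows. Snrpn, which encodes a spliceosome protein, was among those at 0, and 34.1% of its exon bases are shared with other genes. Of 25 paternally expressed genes 8 were tested, 2 fitted higher and 6 lower, with a median log2 fold change of -1.20 that became 1.07 without the library labelled WT 1. Of 25 maternally expressed genes 13 were tested, 6 fitted higher and 7 lower, with a median of -0.18 that turned to 0.38 when WT 1 was left out. The median over all genes tested was itself 0.31 without WT 1 and 0.22 without WT 2.

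Cdkn1c, which encodes the CDK inhibitor p57 and supports HSC dormancy in mice, was uneven within both labels. It had 2, 251 and 752 counts under the Ythdf3-/- label and 1578 and 49 under the WT label. Its log2 fold change of -0.23 (SE 1.91, edgeR adjusted p = 0.9998) became 2.89 without the library labelled WT 1. Slc22a18, a transporter gene of the same cluster, had 3, 564 and 641 counts against 3 and 7. It did not pass in edgeR (log2 fold change 6.61, SE 2.75, adjusted p = 0.983) and passed in DESeq2 (adjusted p = 0.0103). Its adjusted p ran from 0.0103 to 1 over the edgeR, limma and DESeq2 settings that gave one. The groups overlap through the library labelled Ythdf3-/- 1. Osbpl5, a lipid transfer protein gene of that cluster, had 0, 1 and 0 counts against 26 and 53 (edgeR adjusted p = 0.983). Copg2, a coat protein gene beside Mest, had 0, 339 and 1 counts against 219 and 125 (log2 fold change -0.18, SE 2.86, edgeR adjusted p = 0.9998).

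Peg13, a noncoding RNA, had 134, 137 and 105 counts against 2072 and 167, and its log2 fold change of -2.13 (SE 1.35, edgeR adjusted p = 0.9998) became -0.26 without the library labelled WT 1. That library, the deepest, was the highest for 5 of the 10 other paternally expressed genes with counts, and for 19.8% of all genes tested. The sets are unlike, because the 10 include genes under the filter on low counts. Among the 5 is Mkrn3, which had 1 count in all.

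**Figure D4:**
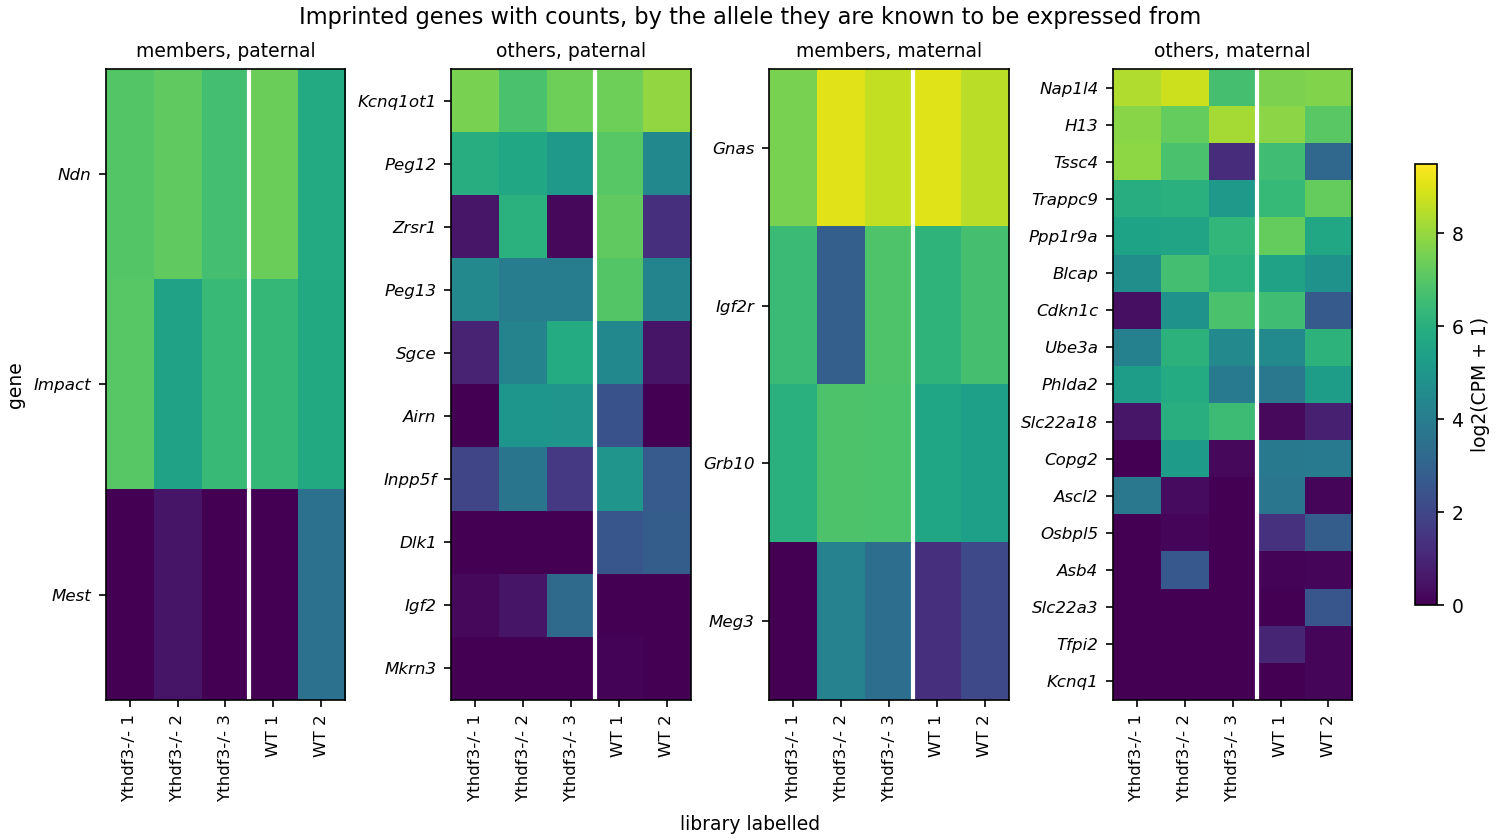
Level of imprinted genes with counts, as log2(CPM + 1), in each library, with those labelled Ythdf3-/- left of the white line and those labelled WT right of it, and genes grouped by the allele they are known to be expressed from in at least some tissues. Levels differ between libraries of the same label for most genes of low level, such as Copg2, with 0, 339 and 1 counts under the Ythdf3-/- label.

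Pathways on which the members act were read beside them. The IGF and insulin list, which holds the receptors that GRB10 binds, had 13 of 20 genes tested, 4 fitted higher and 9 lower, 0 passing and 2 at an unadjusted p under 0.05. Its median log2 fold change of -0.32 turned to 0.73 without the library labelled WT 2. Igf1r, the IGF1 receptor, averaged 64.6 ± 19.2 CPM (SD, n = 3) under the Ythdf3-/- label and 76.3 ± 32.2 CPM (SD, n = 2) under the WT label. Akt1, a kinase that relays growth factor signals, had 397, 245 and 452 counts against 3787 and 2043, with means of 51.3 ± 21.1 and 228 ± 0.255 CPM. Its log2 fold change of -2.25 (SE 0.60) did not pass (edgeR adjusted p = 0.964). Pik3ca, the catalytic subunit of a kinase upstream of it, had 137, 36 and 192 counts against 1678 and 992 (log2 fold change -2.69, SE 1.13, edgeR adjusted p = 0.983). Both were lower in every library labelled Ythdf3-/-, as 11% of all genes tested were, while Igfbp4 and Shc1 were higher in every one.

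In the cyclic AMP list, downstream of Gnas, 20 of 24 genes were tested, 7 fitted higher and 13 lower, and 0 passed. Gng5, a G protein gamma subunit, averaged 135 ± 25.7 CPM under the Ythdf3-/- label and 280.1 ± 54.8 CPM under the WT label (SD, n = 3 and 2; log2 fold change -1.14, SE 0.44, edgeR adjusted p = 0.964). Pde3b, an enzyme that breaks down cyclic AMP, had 4, 12 and 1 counts against 374 and 233 (edgeR adjusted p = 0.983). The list's median was -0.27 on the log2 scale and 0.049 without the library labelled WT 1.

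The GCN2 list, on which IMPACT acts, had 11 of 14 genes tested, 7 fitted higher and 4 lower, with 0 passing and 0 at an unadjusted p under 0.05 in edgeR. Its median of 0.33 on the log2 scale was -0.30 without the library labelled Ythdf3-/- 2. Eif2ak4, which encodes GCN2, averaged 21.7 ± 11.9 CPM against 27.0 ± 10.8 CPM. Eif2ak2, a kinase of the same target that senses double-stranded RNA, had 186, 1 and 197 counts against 14 and 8, and Eif2s1, the subunit these kinases modify, averaged 144 ± 46.4 and 196 ± 45.0 CPM (edgeR adjusted p = 0.9998 for each). In the list of lysosomal sorting, the other task of IGF2R, 11 of 11 genes were tested, 6 fitted higher and 5 lower, and 0 passed. The median of 0.51 was -0.00035 without the library labelled Ythdf3-/- 2 and 1.34 without that labelled WT 1. Vps29, a retromer subunit that returns such receptors to the Golgi, averaged 82.7 ± 12.1 CPM against 177 ± 7.04 CPM, lower in every library labelled Ythdf3-/- (edgeR adjusted p = 0.983). Gga2, a sorting adaptor, had 3, 842 and 300 counts against 11 and 23 (edgeR adjusted p = 0.9998). M6pr, the smaller mannose 6-phosphate receptor, averaged 327 ± 125.1 CPM against 218 ± 142 CPM.

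The label of the cells was read from its markers. Of 17 genes of stem cell identity, 17, 16 and 16 were read under the Ythdf3-/- label, and 17 and 17 under the WT label. All were tested, 7 fitted higher and 10 lower with a median log2 fold change of -0.081, which became 0.76 without the library labelled WT 1. Mecom, a transcription factor gene of long-term HSCs, averaged 129 ± 38.4 and 89.6 ± 42.2 CPM. Others of the list were nearly unread in some libraries. Slamf1, the gene of the CD150 used in the sort, had 328, 354 and 211 counts under the Ythdf3-/- label and 482 and 1 under the WT label. Fgd5, an HSC marker in mice, had 2, 713 and 5 counts against 582 and 303. The Sca-1 gene Ly6a had 187, 241 and 394 CPM under the Ythdf3-/- label and 101 and 119 CPM under the WT label (log2 fold change 1.22, SE 0.49, edgeR adjusted p = 0.964), and Procr 152 ± 113 and 76.1 ± 12.4 CPM (edgeR adjusted p = 0.9998). Genes of replication and mitosis summed to 2216, 712 and 723 CPM under the Ythdf3-/- label and to 1181 and 2904 CPM under the WT label. Among them 16 of the 18 tested were fitted lower, and the list's log2 median of -1.27 was 0.028 without the library labelled WT 2. The cyclin gene Ccne1 had 2, 2 and 1 counts under the Ythdf3-/- label and 34 and 2462 under the WT label. Ccnb2, another cyclin gene, had 0, 1 and 2 counts against 102 and 1653 (edgeR adjusted p = 0.964 for both).

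**Figure D5:**
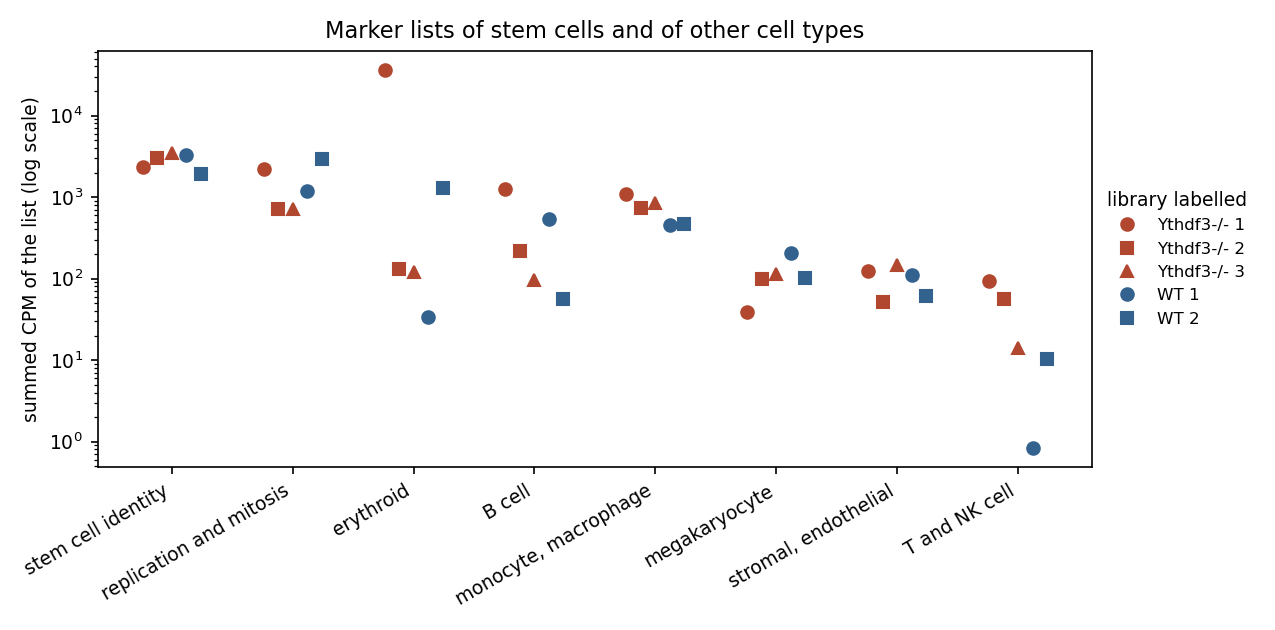
Summed CPM, on a log scale, of marker lists for stem cells, dividing cells and other cell types in each library, with the Ythdf3-/- label in red and the WT label in blue. The erythroid sum is highest in the library labelled Ythdf3-/- 1, at 36558 CPM, and next in that labelled WT 2, at 1301 CPM.

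Profiles over the 5 libraries were compared between genes by the root mean square difference of log2(CPM + 1) after centring each gene on its mean, among 10314 genes of at least 5 CPM on average. With so many candidates and 5 libraries, close profiles are a description only. Nearest to Grb10 were Nudcd2 (0.11) and Commd7 (0.12), and nearest to Ndn were Ostf1 (0.072) and Ppdpf (0.10). Gnas was closest to Vps36 and Tgs1, both at 0.10. The nearest genes of Impact were Slc25a45 (0.10) and Tm2d1 (0.15). Igf2r lay by Snx27 (0.088), which had 3.31 CPM in the library labelled Ythdf3-/- 2 and 39.2 CPM or more elsewhere, and by Swt1 (0.21). Meg3 was farther from its nearest genes, Casp2 and Phc1, both at 0.26. Between members the smallest difference was that of Grb10 and Ndn, 0.64, and the largest that of Igf2r and Meg3, 2.66. The other members were among the candidates, so a member's nearest gene could not lie farther from it than they did.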

How the data were processed

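The authors deposited a table of raw counts by gene symbol, with 1 column for each of 5 libraries. The submitters' processing notes name HISAT2 (2.2.1), HTSeq (0.12.4) and mm10. The annotation, the strand setting and how shared reads were handled were not given in these sources. Counts were tested in R 4.3.3 with edgeR 4.0.16 (default expression filter, TMM scaling, robust quasi-likelihood fit, no covariate), and p-values were adjusted by Benjamini-Hochberg over 11146 genes. CPM used library totals. DESeq2 1.42.0 and limma voom 3.58.1 were alternatives. On simulated counts the edgeR test recovered changed genes where the spread was low. It called none of them at the common biological coefficient of variation of these libraries, 1.26, so that 0 calls does not show that genes did not differ. Every simulated gene was given the same spread, whereas real genes differ in theirs. SE values derive from the F statistic, and fold changes are Ythdf3-/- label over WT label. Spans come from RefSeq (GRCm38.p6), exon lengths and shared bases from GENCODE M21.

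The members and lists were chosen with earlier results of these data known. By rule, the 10 members, Ythdf3 and 8 neighbours in imprinted clusters were named. So were the 2 tested genes with the smallest p of each of 9 lists. The 2 genes most like each member with at least 10 counts in at least 3 libraries were named too. Slamf1, Fgd5, Igf1r, Igfbp4, Shc1, Eif2ak4, M6pr, Mecom, Mkrn3 and Zfp445 were named after their values were seen. The same holds for the single marker genes Hba-a1, Car1, Gata1, Epor, Lyz2, C1qb, Csf1r, Cd3d, Cd3e, Nkg7 and Lck. It also holds for Col1a1, Col1a2, Col3a1, Pdgfra, Cxcl12, Lepr, Cdh5, Kdr, Pecam1 and Emcn. The series text says that the mice differ, and no mouse has a repeat library, so p-values measure the spread between libraries. In that spread, differences between animals and differences between library preparations cannot be told apart.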

Additional observations from a re-analysis of the deposited data

How the results depend on the processing

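Genes past the threshold numbered 0 in edgeR, 21 with no filter on low counts, 259 in DESeq2 and between 0 and 1 with a library left out in turn, the 1 being without WT 1. Members past it stayed at 0 in all 13 alternatives. In the lists, replication and mitosis had 2 calls with no filter and 3 in DESeq2, and the maternally expressed genes had 1 in DESeq2, Slc22a18. The cause was not tested. Leaving out 1 library in turn, the members whose libraries do not overlap numbered 1 to 3 of 10, where 33.3% to 52.6% of all genes tested do not overlap. The 3, without WT 1, were Grb10, Ndn and Mest. The sets are unlike there, because Mest is under the filter on low counts. Leaving out the libraries labelled Ythdf3-/- 1 and WT 2 was a choice made after seeing the data. Then 3 members (Grb10, Ndn and Meg3) did not overlap, where 66% of all genes tested do not overlap.

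Some log2 fold changes changed sign with a library left out, and ran from -0.68 to 0.023 for Gnas, -0.10 to 0.61 for Impact, -0.45 to 1.02 for Ndn, -0.97 to 0.12 for Igf2r, -1.87 to 2.89 for Cdkn1c, -7.41 to 0.41 for Copg2 and -2.10 to 0.079 for Dnmt1. Differences in mean CPM ran from -148 to 25.0 for Gnas, -1.92 to 41.3 for Impact, -40.0 to 14.8 for Igf2r, -41.0 to 67.3 for Ndn and -10.4 to 0.147 for Mest. Without the libraries labelled Ythdf3-/- 1 and WT 2, log2 fold changes were -0.47 for Ndn, -0.35 for Impact, 0.45 for Copg2 and 0.083 for Dnmt1, and differences in mean CPM were -40.8 for Ndn, -14.4 for Impact and 0.22 for Mest. In limma voom Impact was at -0.019 and Igf2r at -1.45. With the replicate number as a block edgeR called 0 genes, Meg3 was at -1.10 and Igf2r at -1.93. The labels give no pairing of same-numbered libraries. Deviations of such libraries from their label's mean correlated at -0.0043 and 0.0094. With 2 libraries under the WT label its deviations are mirror images. Both values thus rest on the same WT contrast and cannot exclude a pairing.

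With 3 against 2 libraries and a common biological coefficient of variation of 1.26, the log2 difference of Grb10, 1.05, had an SE of 0.80. The all-gene median moved to 0.31 without WT 1 and 0.22 without WT 2. A fit that leaves out a WT library has 1 under that label, which is assumed to vary like the others.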

Other observations

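Factors that keep imprints through cell division were read beside the imprinted genes, and none of the 6 tested of 7 passed in edgeR. Zfp57, a zinc finger protein that in mouse embryos binds methylated imprints, had 20, 1 and 124 counts under the Ythdf3-/- label and 1 and 0 under the WT label (edgeR adjusted p = 0.983). Dnmt1, the methyltransferase that copies methylation at replication, averaged 61.5 ± 44.3 CPM under the Ythdf3-/- label and 150.5 ± 132 CPM under the WT label (log2 fold change -1.39, SE 0.93, edgeR adjusted p = 0.9998), with its top value in WT 2. Of 20 genes of replication and mitosis 12 peaked there, compared with 22.9% of all genes tested. Their part in the level of Dnmt1 was not tested. Zfp445, a second zinc finger protein of this kind, named after its values were seen, averaged 38.6 ± 29.8 and 106.7 ± 44.4 CPM and was lower in every library labelled Ythdf3-/-.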
